A study of Homo sapiens with 12 samples.

Results

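This account follows the RNA of 42 listed heat shock chaperones, their partners and the factors that switch them on, in HK-2 cells. They were taken by name from the arrays' annotation, 1 probe set per gene, the one with the highest mean over all arrays among those that name only that gene. Of the 42 genes, 37 had such a probe set, and all 37 reached the level set for testing, which was 4 on the log2 scale in 3 or more arrays. They stand among 10784 genes tested, of 19775 genes with a probe set of their own. HSPB11, HSF2 and AHSA1 had no listed probe set, and every probe set listed for HSPA1B or HSPA8 also names another gene.

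HK-2 is an immortalized line of human proximal tubular epithelial cells, the kidney cells that reabsorb most of the filtered fluid. The 4 groups of 3 arrays were Fk at 48 h, control vehicle at 48 h, Fk at 12 h and control vehicle at 12 h. The labels do not expand the name Fk, and a dose was not used here. All cultures grew in medium with EGF, hydrocortisone, insulin, transferrin and selenite and were treated near confluence.

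Chaperones hold, fold or disaggregate proteins. HSP70 proteins bind short exposed stretches of a client and release them in a cycle driven by ATP, J-domain (DNAJ) proteins bring the client and start the cycle, and BAG proteins and the HSP110 family (HSPA4, HSPA4L and HSPH1) drive the exchange of nucleotide that ends it. HSP90 finishes a narrower set of clients, such as kinases and steroid receptors, small heat shock proteins keep unfolded clients from clumping, and in mitochondria HSPA9 pulls proteins in while HSPD1 and HSPE1 form the folding chamber and its lid. HSF1 switches on many of these genes after heat or other damage to proteins, by binding heat shock elements in their promoters.

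The identity of the cells and the arrays was checked first. All 6 epithelial markers were detected, among them KRT18, a keratin, at 12.6 to 13.5 on the log2 scale. Of 11 proximal tubule markers only PAX8, a transcription factor of the nephron, reached the level for testing, whereas the transport genes AQP1, CUBN and SLC34A1 lay between 2.08 and 3.03 on every array. Of 8 measured markers of other cells, 3 reached it: COL1A1 (7.41 to 8.88), PECAM1 (3.37 to 4.59) and AQP2 (4.18 to 4.33). Replicate arrays correlated at 0.961 to 0.994 within groups, apart from Fk 12 h replicate 3, whose lowest correlation within its group was 0.942. On that array 18.9% of the 37 chaperone genes lay more than 1 log2 unit from the mean of Fk 12 h replicates 1 and 2, against 15.4% of all genes tested. Higher by more than 1 were BAG3, BAG1 and HSPA4L, and lower by as much were BAG5, HSPA2, HSPA12A and DNAJC5. HSPA6, an HSP70 gene that most cells hold silent until heat or a like insult, is not on the list, but its brighter probe set read 8.34 on this array and 2.40 to 2.46 on the other 11. The other HSPA6 probe set read 7.31 there, against 2.69 to 3.26 elsewhere. Values without this array stand beside the results that it moved most.

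**Figure D1:**
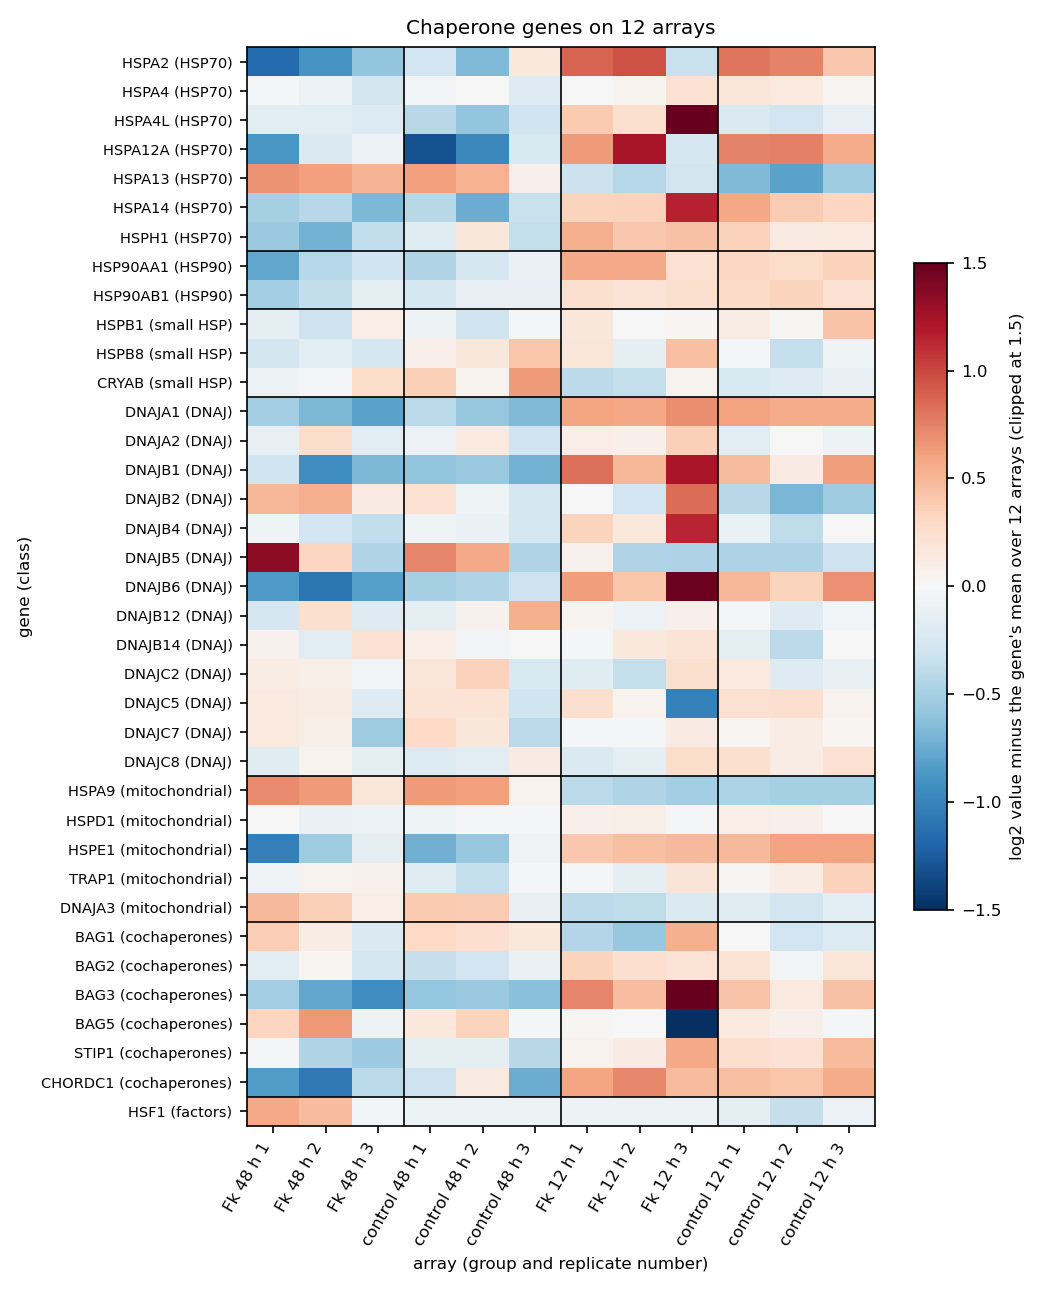
Log2 value of each of the 37 chaperone genes on each array (columns, by group and replicate number) minus the gene's mean over the 12 arrays, by class (rows). DNAJA1, DNAJB1, HSPE1 and BAG3 are low and HSPA9 and HSPA13 high in both groups at 48 h, and Fk 12 h replicate 3 stands apart within its group for HSPA4L, BAG3 and BAG5.

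More chaperone genes differed between the times in control cultures than between Fk and control. Relative to control at 12 h, control at 48 h had lower RNA of the HSP40 co-chaperones DNAJA1, DNAJB1 and DNAJB6, both cytosolic HSP90 genes and the mitochondrial co-chaperonin HSPE1. Levels of HSPA13 and of the mitochondrial HSP70 gene HSPA9 were higher. These are levels in bulk RNA, in which fewer cells that hold a transcript and less of it per cell cannot be told apart. At an adjusted p of 0.05 in limma (Benjamini-Hochberg, over every tested gene), 12 of 37 chaperone genes passed (32.4%), against 21.5% of all genes. Lower at 48 h were 10 (27%), against 10.9% of all genes, and higher were 2, against 10.6% of all genes. The arrays of control 48 h lay wholly below those of control 12 h for 18 chaperone genes and wholly above for 8, against 24.9% and 25.1% of all genes. The median difference was -0.20 log2 units over the 37 and +0.01 over all genes. The p-values measure the spread between arrays that the labels call biological replicates.

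Among the J-domain genes, DNAJA1, the main farnesylated partner of cytosolic HSP70, read 12.30, 12.14 and 12.04 in control 48 h and 13.30, 13.26 and 13.26 in control 12 h. The groups were 0.96 log2 units apart at their nearest arrays. DNAJA1 fell by 1.12 on the log2 scale (SE 0.11), 2.17-fold lower, with a limma adjusted p of 5.06e-04. DNAJB1, a heat-inducible partner that starts the HSP70 cycle, had 9.60, 9.63 and 9.48 in control 48 h, against 10.66, 10.31 and 10.81 in control 12 h. Its groups did not overlap, and it was 2.04-fold lower at 48 h (limma adjusted p 0.00959). DNAJB6, which keeps aggregation-prone proteins apart, had 7.92, 7.98 and 8.12 in control 48 h and 8.92, 8.75 and 9.11 in control 12 h, again without overlap, and was 1.89-fold lower (limma adjusted p 0.0215). The other 10 J-domain genes of the cytosolic class did not pass, so 3 of 13 fell and 0 rose. Those 10 lay between -0.27 (DNAJC8) and +0.69 (DNAJB5), and the class median was -0.00.

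For HSP90, the stress-inducible HSP90AA1 read 14.11, 14.32 and 14.47 in control 48 h and 14.88, 14.85 and 14.92 in control 12 h. The constitutive HSP90AB1 read 13.34, 13.48 and 13.49 in control 48 h and 13.89, 13.94 and 13.83 in control 12 h. Both genes were lower on every control 48 h array than on any control 12 h array. The differences were -0.58 (SE 0.16) and -0.45 (SE 0.11), with limma adjusted p-values of 0.0264 for HSP90AA1 and 0.0195 for HSP90AB1. The other 3 detected probe sets of HSP90AA1 ranged from -1.24 to -0.76 and the other 2 of HSP90AB1 from -0.58 to -0.53, so the brightest set gave the smallest difference for each gene. Among client-handling partners, CHORDC1, which binds HSP90, had 10.27, 10.72 and 9.83 in control 48 h and 11.03, 11.00 and 11.14 in control 12 h. It was 1.72-fold lower (limma adjusted p 0.032), and its control 48 h arrays spread over 0.89 log2 units. STIP1, the adaptor that hands clients over from HSP70 to HSP90, differed by -0.55 and missed the threshold (limma adjusted p 0.0554), although its groups did not overlap. Without Fk 12 h replicate 3 it passed (limma adjusted p 0.0241).

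In the HSP70 class, HSPA13, a microsomal relative of HSP70, read 11.28, 11.18 and 10.74 in control 48 h and 10.00, 9.86 and 10.13 in control 12 h. The nearest arrays were 0.61 apart, and HSPA13 was 2.10-fold higher (limma adjusted p 0.00173). HSPA14, an HSP70 that works at the ribosome with DNAJC2, had 8.82, 8.49 and 8.91 in control 48 h and 9.82, 9.62 and 9.55 in control 12 h, and was 1.90-fold lower (limma adjusted p 0.0148). The groups of HSPA14 did not overlap, but its 2 dimmer probe sets differed by +0.07 and -0.33. HSPA12A, a distant HSP70 relative, had 6.97, 7.30 and 8.04 in control 48 h and 9.01, 9.02 and 8.83 in control 12 h. With a difference of -1.52 (SE 0.38, limma adjusted p 0.0195), HSPA12A had the largest difference among the 37 and the widest spread among these calls. HSPA2, a relative best known from the testis, read 8.81, 8.43 and 9.26 in control 48 h and 9.90, 9.84 and 9.50 in control 12 h, without overlap. Its difference of -0.92 did not pass with all arrays (limma adjusted p 0.0749) and passed without Fk 12 h replicate 3 (limma adjusted p 0.0129). HSPH1 differed by -0.33, HSPA4L by -0.23 and HSPA4 by -0.20, and these did not pass. The dimmer detected probe sets of HSPH1 differed by -0.57 and -0.90, so its brightest set gave the smallest difference.

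The inducible HSP70 pair HSPA1A and HSPA1B can be followed only through probe sets that name both, so no gene is named from them and no test was made. The brightest of them read 10.66, 10.36 and 10.88 in control 48 h and 12.73, 12.49 and 12.66 in control 12 h. Its nearest arrays were 1.60 log2 units apart, with a mean difference of -1.99, or 3.97-fold lower at 48 h. The other 2 such sets differed by -2.04 and -2.31, which is larger than the difference of any of the 37 genes with a probe set of their own. The set at -2.31 also names HSPA1L. The 4 sets that name HSPA8, the constitutive HSP70, together with small nucleolar RNAs of its introns differed by -1.19 to -0.59.

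BAG3, which couples HSP70 and HSPB8 to the removal of damaged proteins by autophagy, had 9.46, 9.48 and 9.41 in control 48 h and 10.46, 10.18 and 10.47 in control 12 h. The difference of BAG3 was -0.92 (SE 0.28, limma adjusted p 0.0416). BAG2, an inhibitor of client ubiquitination, differed by -0.36 (limma adjusted p 0.0595, or 0.0425 without Fk 12 h replicate 3), and BAG1 and BAG5, nucleotide exchange factors, by +0.40 and +0.09. Of the 3 small heat shock genes 2 had a positive difference, and 0 passed. CRYAB, the lens protein alpha B-crystallin that other tissues also express, had 11.80, 11.50 and 12.09 in control 48 h and 11.22, 11.26 and 11.33 in control 12 h. The CRYAB groups did not overlap, but the difference of +0.53 missed the threshold (limma adjusted p 0.0548), which it passed without Fk 12 h replicate 3 (limma adjusted p 0.0262). HSPB8 differed by +0.37 (limma adjusted p 0.127) and HSPB1, the abundant small heat shock protein HSP27, by -0.31 (limma adjusted p 0.156). HSF1 differed by +0.11 (limma adjusted p 0.634).

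The mitochondrial genes did not all pass in 1 direction. HSPE1, the lid of the chaperonin chamber, read 12.44, 12.59 and 13.10 in control 48 h and 13.65, 13.76 and 13.76 in control 12 h, 2.01-fold lower at 48 h (limma adjusted p 0.0112). HSPD1, the chamber itself, had 14.51, 14.56 and 14.55 in control 48 h and 14.68, 14.66 and 14.59 in control 12 h. This was a difference of -0.10 with a 95% interval of -0.30 to 0.10 (limma adjusted p 0.458). Its probe set is among the brightest here and spans 0.20 log2 units over all 12 arrays. The other 3 detected sets of HSPD1, all dimmer, differed by -0.21, -0.53 and -0.32, so all 4 had a negative difference and the brightest the smallest. Within each control array, HSPE1 minus HSPD1 ran from -2.07 to -1.45 at 48 h and from -1.03 to -0.83 at 12 h. This comparison was chosen after the values were seen and rests on the brightest HSPD1 set. The change in HSPE1 minus HSPD1 was -0.91, control 48 h minus control 12 h. An exact two-sided test over the 20 assignments of the control arrays to the times gave a p of 0.1. This is the smallest p that the test can give with these arrays, so it cannot decide whether the gap differed between the times. HSPA9, the import motor and main mitochondrial HSP70, read 12.89, 12.86 and 12.31 in control 48 h and 11.78, 11.75 and 11.75 in control 12 h. HSPA9 was higher on every control 48 h array, by 0.93 (SE 0.18), 1.90-fold (limma adjusted p 0.00679), and its 2 other detected sets gave +1.01 and +0.93. DNAJA3, the J-domain partner of HSPA9, differed by +0.43 (limma adjusted p 0.0711) and TRAP1, the mitochondrial HSP90, by -0.35 (limma adjusted p 0.0916). The class therefore had 1 gene lower, 1 higher and 3 that did not pass.

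**Figure D2:**
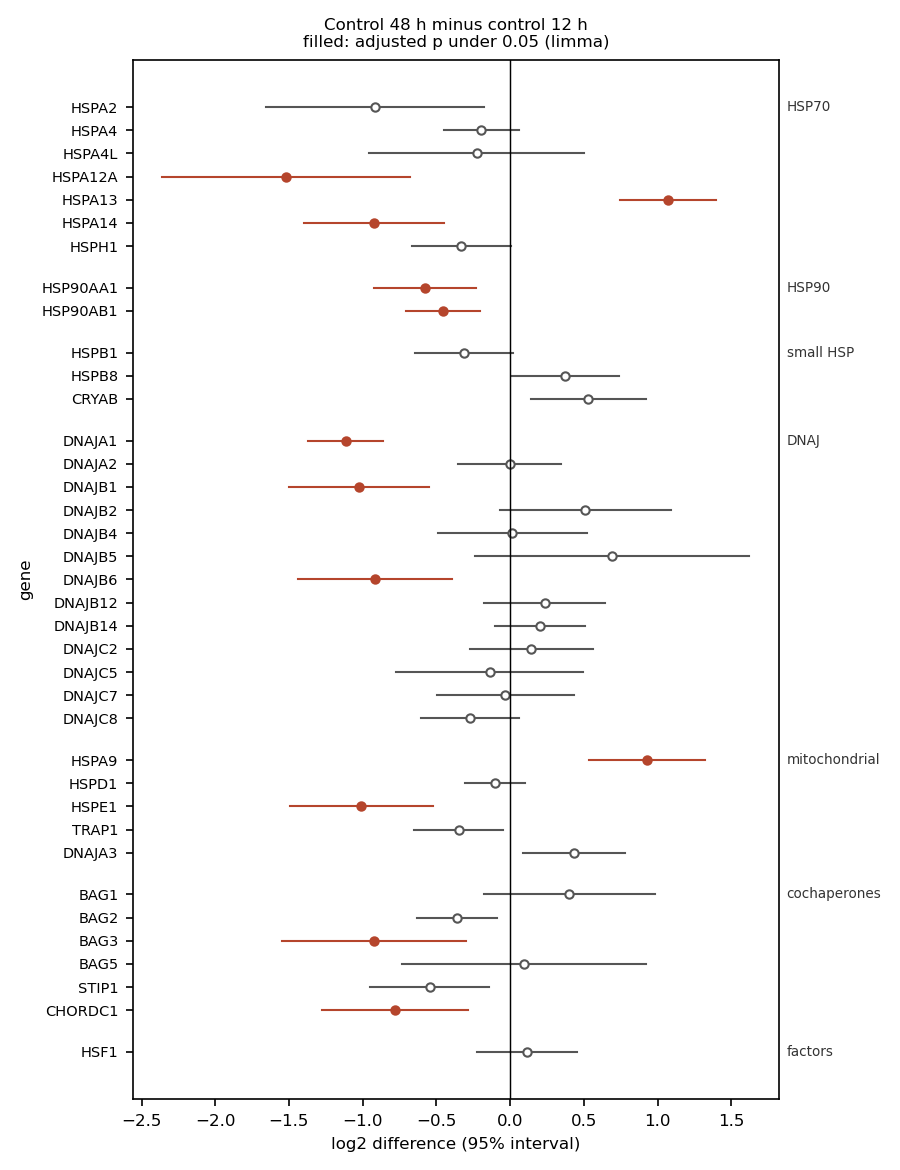
Difference on the log2 scale, control 48 h minus control 12 h, for each of the 37 chaperone genes by class, with 95% limma intervals. Filled points passed an adjusted p of 0.05: 10 lie left of 0, from HSPA12A at -1.52 to HSP90AB1 at -0.45, and 2 lie right of it, HSPA9 at +0.93 and HSPA13 at +1.07.

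The number of calls over time depended on which array was left out. DNAJA1, DNAJB1, HSPE1, HSPA13 and HSPA9 passed in every alternative that gave a value. The count of 12 became 5, 7 and 6 without control 12 h replicates 1, 2 and 3, against 12%, 10.8% and 9.83% of all genes in the same fits. It became 6 and 7 without control 48 h replicates 1 and 2, against 10.1% and 10.6% of all genes. In these 5 fits the chaperone share was 13.5% to 18.9%. Without control 48 h replicate 3 the count was 13 (35.1%), against 24.8% of all genes. Without Fk 12 h replicate 3, which enters this contrast only through the shared estimate of spread, 17 chaperone genes passed, 13 lower and 4 higher, against 31.9% of all genes in the same fit. The 5 that it added were HSPA2, STIP1 and BAG2, lower, and CRYAB and DNAJB2, higher, the last at +0.51 with a limma adjusted p of 0.0407, against 0.184 with all arrays. Leaving out any other Fk array gave 11 to 13, against 18.1% to 23.5% of all genes.

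Start regions are shown for 7 genes that hold the letters of the heat shock element and were chosen for that: 6 that were lower in control 48 h, and HSPD1, which did not pass and is the neighbour of HSPE1. HSPE1, HSPA12A and BAG3, also lower, held no such letters in their windows and are not shown. The regions come from RefSeq promoter windows of build GRCh38.p14, 250 bases before to 50 after each annotated start. The element was read on both strands as inverted pairs of its core, GAANNTTC or TTCNNGAA, or as a run of 3 alternating 5-base units, NGAAN and NTTCN, which contains 2 overlapping pairs. Capitals mark pairs and runs, and sequences run in the direction of the gene.
DNAJA1, chr9:33025255-33025292, plus strand: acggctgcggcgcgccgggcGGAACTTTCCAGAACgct
DNAJB1, chr19:14518417-14518494, minus strand: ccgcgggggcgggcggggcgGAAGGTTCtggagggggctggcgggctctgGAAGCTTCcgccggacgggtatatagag
HSP90AA1, chr14:102087099-102087153, minus strand: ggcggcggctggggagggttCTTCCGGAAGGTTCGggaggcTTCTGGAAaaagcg
HSP90AB1, chr6:44247757-44247864, plus strand: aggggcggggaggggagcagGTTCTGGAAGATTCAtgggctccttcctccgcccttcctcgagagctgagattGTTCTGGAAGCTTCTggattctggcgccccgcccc
CHORDC1, chr11:90223065-90223130, minus strand: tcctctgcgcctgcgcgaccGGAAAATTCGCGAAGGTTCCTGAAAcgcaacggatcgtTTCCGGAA
DNAJB6, chr7:157336852-157336906, plus strand: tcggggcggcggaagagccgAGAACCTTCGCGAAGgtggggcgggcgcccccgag
HSPD1, chr2:197500047-197500090, minus strand: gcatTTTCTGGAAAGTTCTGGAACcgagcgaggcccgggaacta

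A window was found for 38 of the 42 genes, not for HSPA14, HSPB11, HSF1 and CRYAB. A run of 3 units stood in a window of 7 of the 38, against 0.597% of the 27305 symbols in the table, and a pair in 16 of the 38 (42.1%), against 16.2% of symbols. The 7 were DNAJA1, HSP90AA1, HSP90AB1, CHORDC1, DNAJB6, HSPA8 and HSPD1. Among genes lower in control 48 h, 5 of 9 with a window held a run. Among those that did not pass, 1 of 23 did, and of the 2 that were higher, 0 did. The run of DNAJA1 begins at the third base of the transcript. DNAJB1, also lower, held a pair at 2 places in the stretch shown and no run. The HSPE1 window held neither. HSPE1 and HSPD1 run in opposite directions, and the table has 2 starts for HSPD1, 105 and 539 bases from that of HSPE1. The run printed for HSPD1 is in the window of the farther start, after the nearer one, and lies 293 to 312 bases before the start of HSPE1. HSPH1, HSPA12A and BAG3 held no pair in these windows. A match describes these letters only, and no binding was measured.

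**Figure D3:**
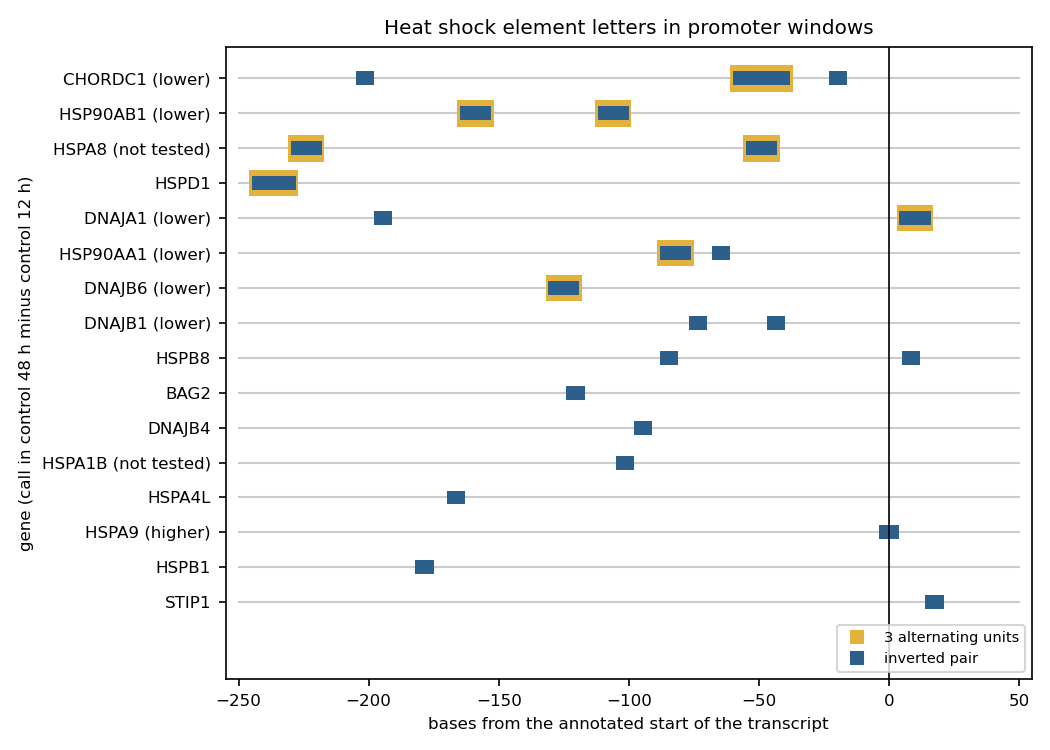
Positions of inverted pairs (blue) and runs of 3 alternating units (yellow) of the heat shock element in the promoter windows of the 16 chaperone genes that hold a pair, in bases from the annotated start; where a gene has several windows, the one with most pairs is drawn. Of the 7 genes with a run, 5 are marked lower in control 48 h than in control 12 h, HSPD1 did not pass and HSPA8 was not tested.

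At 12 h, no chaperone gene passed between Fk and control. In limma, 0 of 37 passed the adjusted threshold, as did 0% of all genes tested. At an unadjusted p of 0.05, 4 passed (10.8%), against 6.71% of all genes. The arrays of Fk lay wholly above control for 8 chaperone genes, against 9.91% of all genes, and wholly below for 1, against 6.49% of all genes. The 8 were HSPA4L, HSPA13, HSPH1, DNAJA2, DNAJB2, DNAJB4, BAG3 and HSF1, and the 1 was HSPE1. For HSF1 the lowest Fk array read 6.597 and the highest control array 6.594. The DNAJA2 probe set used differed by +0.25, and its other detected set by -0.08. The median difference was +0.05 over the 37, with 21 positive, and +0.01 over all genes.

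The largest difference was in HSPA4L, a member of the HSP110 family. HSPA4L read 9.55, 9.40 and 10.99 in Fk and 8.95, 8.88 and 9.04 in control. All Fk arrays lay above all control arrays, by a mean of +1.03 (SE 0.33, limma adjusted p 0.654), and replicate 3 alone was near 11. Without that array the difference was +0.52 (limma adjusted p 0.411). The other detected probe set of HSPA4L, a dimmer one, differed by +0.34 with all arrays. DNAJB4, a J-domain partner of cytosolic HSP70, had 8.64, 8.47 and 9.45 in Fk and 8.21, 7.93 and 8.32 in control. Its arrays did not overlap, and the difference of +0.70 (limma adjusted p 0.654) became +0.41 without replicate 3. DNAJB2, known from neurons, had 6.51, 6.22 and 7.35 in Fk and 6.10, 5.83 and 5.98 in control, and its +0.73 (limma adjusted p 0.673) became +0.40. BAG3 had 10.76, 10.49 and 11.83 in Fk and 10.46, 10.18 and 10.47 in control, and its +0.66 (limma adjusted p 0.739) became +0.26. In these 4 genes the same array was the highest of the group, and its share in the differences is the gap between the paired values. HSPA6 was also high on that array, as given above, and its part in these differences was not tested.

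Some other differences moved little without that array. HSPH1, the inducible HSP110, read 11.81, 11.67 and 11.71 in Fk and 11.61, 11.40 and 11.41 in control, without overlap, a difference of +0.25 (limma adjusted p 0.789) or +0.27 without replicate 3. Its next brightest probe set differed by +0.29, but the third, dimmer set went the other way, by -0.19. HSPA13 had 10.33, 10.22 and 10.38 in Fk and 10.00, 9.86 and 10.13 in control, and its +0.32 (limma adjusted p 0.759) was +0.28 without it. The 3 probe sets shared by HSPA1A and HSPA1B were also higher in Fk, with no overlap of the arrays. The brightest of these sets read 13.34, 12.95 and 12.93 in Fk and 12.73, 12.49 and 12.66 in control. The 3 mean differences were +0.43 to +0.80, and +0.52 to +0.85 without replicate 3, with no test since they name several genes. The 4 sets that name HSPA8 differed by -0.09 to +0.15, and by +0.01 to +0.25 without replicate 3, also with no test. The difference of DNAJB1 did move. DNAJB1 had 11.02, 10.69 and 11.41 in Fk and 10.66, 10.31 and 10.81 in control, which overlap, and its difference was +0.44 (limma adjusted p 0.759) or +0.26 without replicate 3.

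On the negative side, the smallest p-values belonged to BAG5, DNAJC8 and DNAJC5, the cysteine string protein of secretory vesicles. BAG5 had 9.58, 9.56 and 7.96 in Fk and 9.71, 9.64 and 9.54 in control, so its -0.60 (limma adjusted p 0.791) was -0.06 without replicate 3. DNAJC5 had 8.67, 8.48 and 7.42 in Fk and 8.65, 8.68 and 8.48 in control, so its -0.41 (limma adjusted p 0.799) was -0.03. DNAJC8, a J-domain protein tied to splicing, had 10.62, 10.70 and 11.10 in Fk and 11.08, 10.95 and 11.07 in control, and its -0.23 (limma adjusted p 0.791) was -0.37 without it. Thus the first 2 negative values were carried by the same array and the third was held back by it.

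The remaining chaperones at 12 h also did not pass, and several moved with the same array. The 2 HSP90 genes lay at +0.14 (HSP90AA1) and -0.05 (HSP90AB1), with intervals of -0.20 to 0.49 and -0.30 to 0.20. Without replicate 3 these were +0.26 and -0.06. HSPB1 lay at -0.12, CRYAB at -0.05 and HSPB8 at +0.31, and without it at -0.10, -0.20 and +0.17. DNAJB6 was at +0.34 with all arrays and +0.02 without it. The sign turned for HSPA2 (from -0.15 with all arrays to +0.27), HSPA12A (-0.15 to +0.26), HSPA14 (+0.18 to -0.09), BAG1 (+0.00 to -0.34) and HSPD1 (-0.01 to +0.02), all below their standard errors with all arrays. Of the 5 mitochondrial genes 1 was positive, and they ran from -0.15 (TRAP1) to +0.04 (HSPA9). HSPE1 read 13.56, 13.61 and 13.65 in Fk and 13.65, 13.76 and 13.76 in control, which touch at the second decimal but do not overlap, a difference of -0.12 (limma adjusted p 0.935). HSF1, the master regulator, had 6.60 on every Fk array and 6.54, 6.33 and 6.59 in control. These differ by +0.11 (limma adjusted p 0.9).

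At 48 h again, 0 of 37 chaperone genes passed in limma, as did 0% of all genes tested. At an unadjusted p of 0.05, 3 passed (8.11%), against 5.18% of all genes. The arrays of Fk lay wholly above control for 2, HSPA4L and HSF1, against 6.14% of all genes, and wholly below for 3, HSPH1, HSPB8 and DNAJB6, against 4.02% of all genes. The median was -0.03 over the 37, with 23 negative, and +0.02 over all genes.

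HSPH1 had 10.72, 10.56 and 10.89 in Fk and 11.09, 11.44 and 10.91 in control. The nearest arrays, 10.89 and 10.91, almost touch, and the control group was the wider. The difference was -0.42 (SE 0.15, limma adjusted p 0.827), and -0.27 without control 48 h replicate 2. The dimmer detected probe sets of HSPH1 differed by -0.28 and -0.85. HSPB8, the small heat shock partner of BAG3, read 10.31, 10.43 and 10.33 in Fk and 10.66, 10.76 and 11.00 in control. Its Fk arrays were tight and all below control, with a difference of -0.45 (SE 0.16, limma adjusted p 0.857). DNAJB6 had 7.58, 7.33 and 7.60 in Fk and 7.92, 7.98 and 8.12 in control, a difference of -0.50 (SE 0.24, limma adjusted p 0.976) without overlap. The brighter probe sets that name DNAJB6 together with TMEM135 differed by only -0.11 and +0.09, with overlap and with no test. CHORDC1 had 9.74, 9.50 and 10.18 in Fk and 10.27, 10.72 and 9.83 in control, which overlap, and differed by -0.47 (limma adjusted p 0.976), or -0.24 without control 48 h replicate 2.

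The widest differences at 48 h in both directions were in HSP70 genes whose arrays overlap. HSPA2 read 7.94, 8.21 and 8.51 in Fk and 8.81, 8.43 and 9.26 in control, a difference of -0.61 (SE 0.33, limma adjusted p 1) or -0.40 without control 48 h replicate 3. HSPA12A read 7.40, 8.05 and 8.19 in Fk and 6.97, 7.30 and 8.04 in control, a difference of +0.44 (SE 0.38, limma adjusted p 1). Without control 48 h replicates 1 and 3 in turn, that of HSPA12A was +0.21 and +0.75. Replicate 3 was the highest of both groups for HSPA2 and HSPA12A, and replicate 1 the lowest of both for HSPA12A. Leaving out 1 control array therefore shifts only 1 side of these differences.

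Among other positive differences, HSF1 had 7.25, 7.16 and 6.63 in Fk and 6.60, 6.61 and 6.61 in control. Its difference of +0.41 (SE 0.15, limma adjusted p 0.886) came from 2 of 3 Fk arrays, since the third lay 0.027 above the highest control array. HSF1 read within 0.1 of its median of 6.60 on 9 of the 12 arrays, and its dimmer probe set reached the level of 4 on 2 arrays. DNAJB2 had 7.01, 7.05 and 6.63 in Fk and 6.74, 6.44 and 6.25 in control and differed by +0.42. TRAP1 had 9.79, 9.89 and 9.91 in Fk and 9.66, 9.48 and 9.81 in control and differed by +0.21 (limma adjusted p 1). These last 2 genes overlap by 1 array of each group.

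The following chaperone genes with a probe set of their own had differences of -0.29 to +0.07 at 48 h. HSP90AA1 and HSP90AB1 differed by -0.23 and -0.17, HSPB1 by +0.02 and CRYAB by -0.29. DNAJB1 differed by -0.02, BAG3 by -0.16, HSPA9 by +0.07, HSPD1 by -0.02 and HSPE1 by -0.12. Fk replicate 1 was the lowest array of all 12 for HSPE1 (12.13) and HSP90AA1 (13.80), and without it the difference of HSP90AA1 was -0.09. Control 48 h replicate 1 was also the lowest of its group for both genes (12.44 and 14.11). The deviations of these arrays correlated at 0.798 over all genes tested, so leaving out Fk replicate 1 alone shifts only 1 side of the difference. The brightest probe set shared by HSPA1A and HSPA1B read 10.61, 10.25 and 10.73 in Fk and 10.66, 10.36 and 10.88 in control, which overlap, and the 3 such sets differed by -0.10 to +0.28. The time difference seen in control was therefore larger than any Fk difference of these sets. The 4 sets that name HSPA8 differed by -0.33 to -0.15 between Fk and control at 48 h, with no test.

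**Figure D4:**
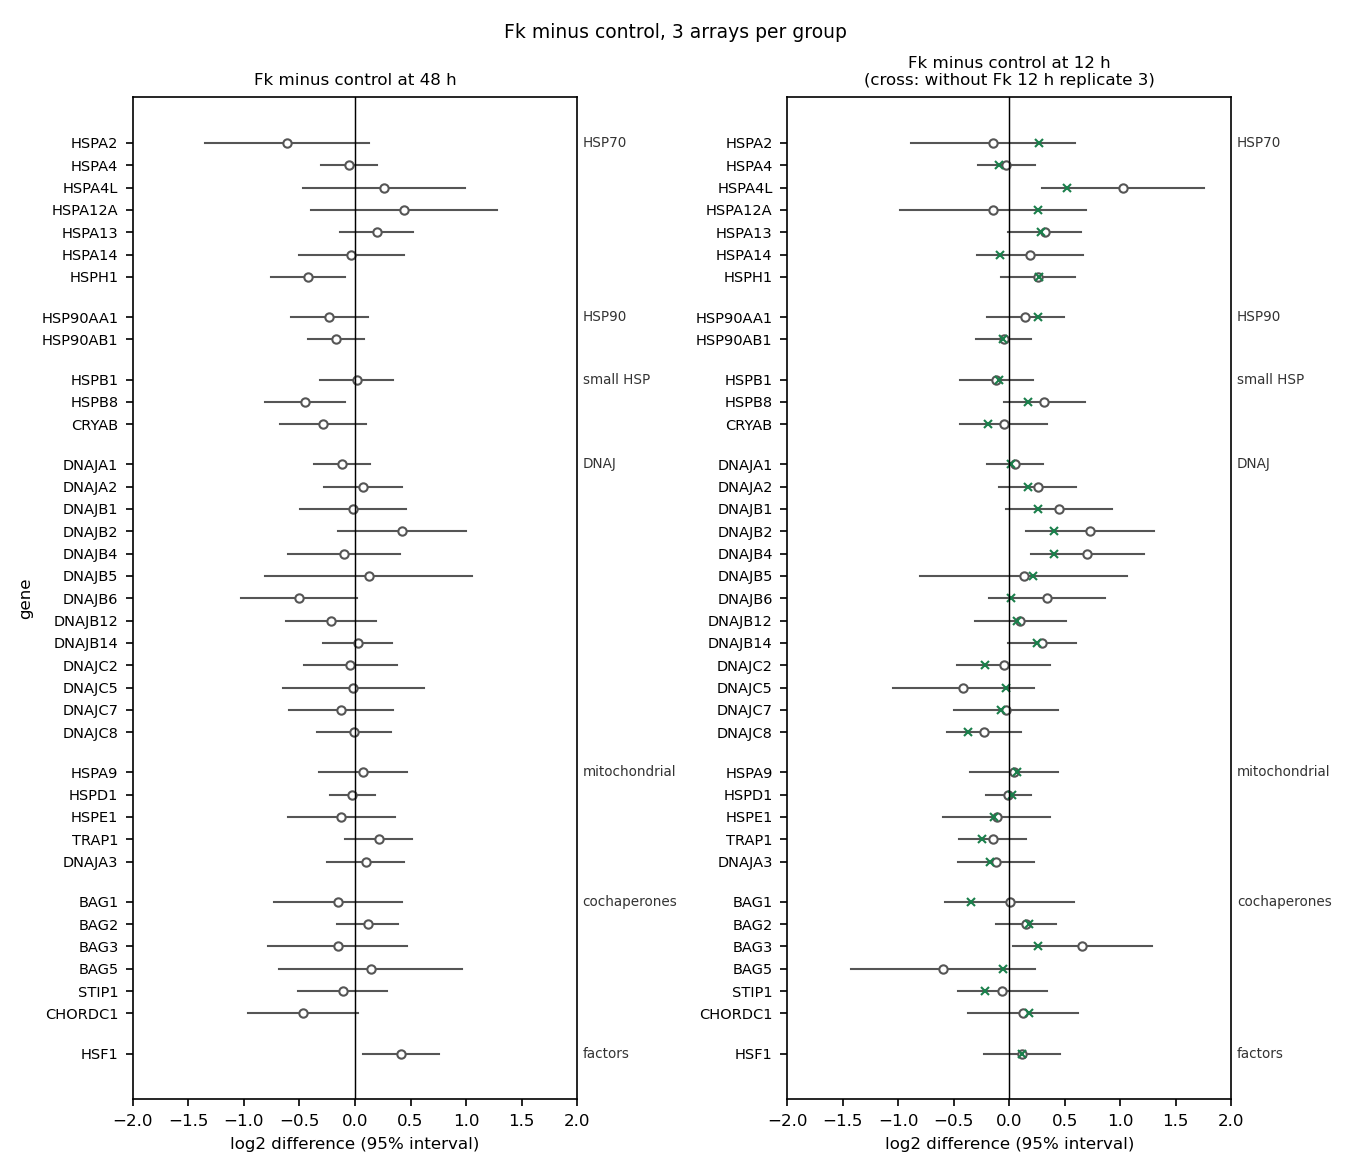
Difference on the log2 scale, Fk minus control, at 48 h (left) and 12 h (right), for each of the 37 chaperone genes by class, with 95% limma intervals; crosses at 12 h leave out Fk 12 h replicate 3. All points are open because 0 passed an adjusted p of 0.05, and HSPA4L moves from +1.03 to +0.52 at 12 h without that array.

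Whether the Fk difference itself changed between the times was tested as the difference at 48 h minus that at 12 h. In limma, 0 of 37 chaperone genes passed, as did 0% of all genes tested. At an unadjusted p of 0.05, 4 passed, HSPH1, HSPB8, DNAJB4 and DNAJB6 (10.8%), against 3.31% of all genes. All 4 were negative: HSPH1 at -0.68 (SE 0.21), HSPB8 at -0.77 (SE 0.23), DNAJB4 at -0.80 (SE 0.32) and DNAJB6 at -0.84 (SE 0.33), each with a limma adjusted p of 0.996. Without Fk 12 h replicate 3 the values were -0.69, -0.62, -0.50 and -0.52, so that of HSPH1 was as large without it. The brighter probe sets that name DNAJB6 together with TMEM135 showed little such change. Their Fk differences were +0.06 and +0.11 at 12 h and, in the same order, -0.11 and +0.09 at 48 h. On the positive side the smallest p-values belonged to TRAP1 at +0.36 (SE 0.19), BAG5 at +0.74 (SE 0.53) and HSF1 at +0.30 (SE 0.22), each also with a limma adjusted p of 0.996, and BAG5 was at +0.20 without that array. HSP90AA1 stood at -0.37, DNAJB1 at -0.46 and BAG3 at -0.82, the last 2 at -0.28 and -0.42 without that array, while HSPA9, HSPD1 and HSPE1 stood at +0.03, -0.01 and -0.01. Over the 37 genes 27 were negative, with a median of -0.12 (+0.01 over all genes), and 21 were negative with a median of -0.07 without the array. The median half-width of the 95% interval was 0.569 log2 units for these genes here and 0.403 in each of the other comparisons. These intervals are not adjusted for the number of genes tested, so a larger difference can still miss the adjusted threshold.

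**Figure D5:**
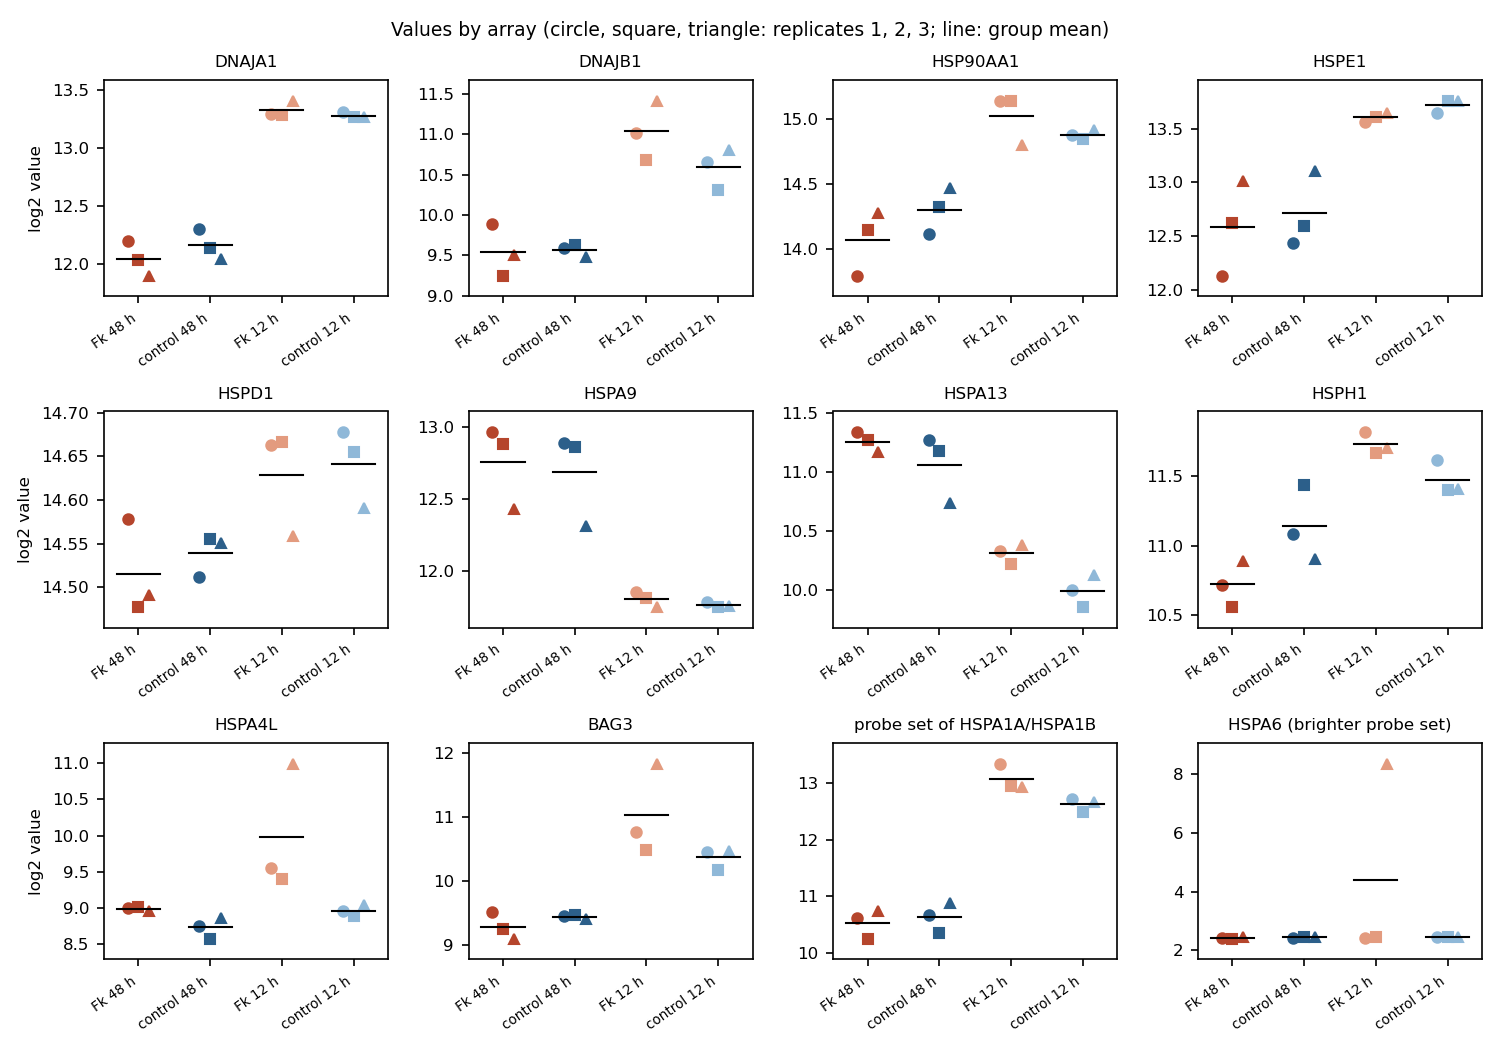
Log2 value on each array for 10 chaperone genes, for the brightest probe set that names HSPA1A and HSPA1B, and for the brighter HSPA6 probe set; groups run from Fk 48 h and control 48 h to Fk 12 h and control 12 h, symbols are replicates 1, 2 and 3 and lines are group means. DNAJA1 sits at 11.9 to 12.3 on the 6 arrays at 48 h and at 13.3 to 13.4 on the 6 at 12 h, while HSPA6 leaves its floor only on Fk 12 h replicate 3.

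Other folding machines were counted for comparison. In control 48 h against control 12 h, 10.9% of all genes tested passed as lower and 10.6% as higher. Of 12 measured subunits of the cytosolic chaperonin TRiC and its helper prefoldin, 6 fell and 1 rose in control 48 h against control 12 h, with CCT3 at -0.71, CCT5 at -0.59 and PFDN1 at -0.50 and, the other way, PFDN2 at +0.85. Of 15 further genes, a list of HSP70 and HSP90 partners and of other heat shock genes, 3 fell and 1 rose. Those that fell were FKBP4 at -0.90, PTGES3 (the HSP90 co-chaperone p23) at -0.61 and CDC37, which brings kinases to HSP90, at -0.48. HSPB2, a small heat shock gene that is not on the main list, rose by +0.57. Of 14 chaperones of the endoplasmic reticulum, 13 had a positive difference, with a median of +1.12. Of these 2 passed, DNAJB9 at +3.11 (limma adjusted p 0.0232) and HSPA5, also called BiP, at +1.56 (limma adjusted p 0.0134). Of 16 genes of mitochondrial import and proteases, 3 rose and 3 fell: the protease genes LONP1 and AFG3L2 at +1.28 and +0.44 and GRPEL2 at +0.82, against GRPEL1 at -0.79, TOMM22 at -0.76 and TOMM40 at -0.50. GRPEL1 and GRPEL2 are both exchange factors of HSPA9, and they differed in opposite directions. Between Fk and control, 0 genes of these lists passed in limma at either time, as did 0% of all genes tested.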

How the data were processed

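RNA of 12 HK-2 cultures was measured on Affymetrix arrays. The deposited log2 values, 1 for each of 54675 probe sets, were made with GCRMA, per the submitters' processing notes, and their range gives the scale. The version of GCRMA, and whether other arrays were normalized with these, are not given in the sources used here. A single gene symbol is annotated for 41097 probe sets, more than 1 for 1801 and no symbol for 11777. The brightest probe set with 1 symbol stood for its gene. Array medians were 2.85 to 2.94, and the number of arrays limits the precision.

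limma 3.58.1 in R 4.3.3 was fitted to all 12 arrays with 1 mean per group. The limma tests were two-sided, moderated by eBayes (prior degrees of freedom 2.44, residual 8), and Benjamini-Hochberg adjustment ran over 10784 genes. In all, 23 alternatives were run, 12 of which left out 1 array. The fit was tested on simulated data. Figures used matplotlib 3.10.9 and pandas 2.3.3 (Python 3.11.15). Every listed gene was eligible to be named. Fuller statistics went to 14 chosen genes, of which 12 have a probe set of their own, to genes that passed, and otherwise to the 3 smallest p-values in each direction. The genes and lists were chosen with earlier results of these data known. Equal replicate numbers were not taken to pair arrays.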

Additional observations from a re-analysis of the deposited data

How the results depend on the processing

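Of the 148 chaperone gene differences, 49 changed sign in 1 or more alternatives: 15 for Fk at 12 h, 17 at 48 h, 13 for the change between the times and 4 over control time. Of these 49, 0 had passed the threshold, and all but 4 were smaller than their standard error. The 4 were these: without probe sets ending in _x_at, _s_at or _a_at, HSPH1 at 12 h was -0.19, DNAJB14 at 12 h -0.22 and its change between the times +0.36, and with array weights DNAJB12 at 48 h was +0.062. The cause was not tested. For Fk at 48 h, 1 gene of all tested passed with no filter, with a filter at 6 and with only the groups compared, and 4 with the mean of all probe sets or a threshold of 0.10. With array weights, where Fk 12 h replicate 3 had a weight of 0.121, 156 of 10784 genes passed at 12 h, 94 at 48 h and 4920 over control time. That setting called 2 of 37 chaperone genes at 48 h, against 94 of all 10784. They were HSPH1 (-0.68) and CHORDC1 (-0.91), both with a limma adjusted p of 0.0462. It called 23 over control time (62.2%), 16 lower and 7 higher, against 45.6% of all genes. Over control time, without the _x_at, _s_at and _a_at sets, 1539 of 7859 genes tested passed (19.6%). Of 24 chaperone genes measured there, 8 passed (33.3%), 6 of them lower. A threshold of 0.10 gave 18 of 37 chaperone genes (48.6%), 4 of them higher, against 31.1% of all genes. Leaving out 1 array gave 0 to 3 genes for Fk at 12 h and 0 to 1 at 48 h. Over control time it gave 1060 to 3438 genes (9.83% to 31.9%). Of chaperone genes it gave 5 to 17 (13.5% to 45.9%), 3 to 13 lower and 2 to 4 higher.

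Deviations of Fk and control arrays with equal replicate numbers correlated at 0.041 to 0.265 at 12 h. At 48 h they correlated at 0.798, -0.025 and 0.606 for replicates 1, 2 and 3. The source of the high values at 48 h was not tested. The numbers were not used as pairs because the labels give no shared origin for them. With the replicate block, 1 gene passed at 12 h, 0 at 48 h and 2287 over control time (21.2%). Of these 10 were chaperone genes (27% of the 37). With 3 arrays per group, the 95% interval of a typical chaperone gene reached 0.403 log2 units to either side. The fit of only the groups compared was not run for the change between the times, which needs all groups.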
